A study of Mus musculus with 12 samples.

Results

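The DNA replication and cell cycle genes described here were a fixed list of 35 mouse genes, found in the array files by their current or an older symbol. They comprised 17 genes of DNA replication and nucleotide supply, 6 genes of G1 and entry into S phase, and 12 genes of G2 and mitosis. All 35 were found, on 54 probes, and all were among the 13896 genes measured. Their RNA came from the yolk sac, the membrane around the embryo that makes its earliest blood, at embryonic days 8.5 (E8.5) and 9.5 (E9.5). The 4 groups were wild-type E8.5, mutant E8.5, wild-type E9.5 and mutant E9.5 yolk sacs, with 3 biological replicates each, and single yolk sacs and pools are not told apart in the labels. The mutant was homozygous for V1068G, a single amino acid change in BAF250A (gene Arid1a), the subunit that carries the ARID DNA-binding domain of the SWI/SNF chromatin-remodelling complex. All groups carried the background strain CD1 according to the labels. Each array compared yolk sac RNA in Cy5 with a common RNA in Cy3 from wild-type neonatal whole mice of mixed 129Sv and C57BL/6 background. The study asked how loss of contact between the ARID domain and DNA alters gene expression.

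Replication starts from origins on which ORC, CDC6 and CDT1 load the ring-shaped MCM helicase during G1. Cyclin E with CDK2 and the E2F transcription factors then bring the cell into S phase, when GINS proteins help to activate the helicase and the polymerases copy the strands. Cyclin B with CDK1 drives mitosis, Aurora and Polo-like kinases build the spindle, and CDC20 starts the destruction of cyclin B at anaphase. E2F-bound promoters are known for S-phase genes, and the CHR element with nearby CCAAT boxes is known for genes of G2 and mitosis. Yolk sac blood, endoderm and mesenchyme all grow over these days.

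Between E8.5 and E9.5, 8 of the 17 replication genes fell in wild-type yolk sacs, where 11% of all genes were called lower, and 9 fell in mutant ones, where 10.6% were, relative to the other genes on the array. Between the genotypes, none of the 35 genes passed the threshold at E8.5, where 1.44% of all genes did, or at E9.5, where 1.99% did. That fit ignored which arrays were scanned together. With the scan as a block Rrm2 passed at E8.5 (adjusted p = 0.044), and Rrm2, Prim1 and Ccnd1 passed over both stages. The share of all genes in the block fit is not given here, so these are named as single genes. Cdc6, Mcm3, Mcm4 and Ccne1 fell by 0.33 to 0.49 on the log2 scale in wild-type and by 0.32 to 0.48 in mutant yolk sacs. Cdk1 rose by 0.29 in the wild type (adjusted p = 0.045), a call lost in 6 of 12 fits that each left out 1 array. The threshold throughout was an adjusted p under 0.05 in limma, with Benjamini-Hochberg adjustment over all 13896 genes. Values are log2 ratios of Cy5 over Cy3 on single arrays and differences are between means of 3 arrays. In whole tissue, fewer cycling cells and less of a transcript per cell cannot be told apart.

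RefSeq promoter windows (GRCm38.p6, 250 bases before to 50 after a transcript start) were at hand for 26 of the 35 genes. Windows are shown for 3 replication genes and 2 mitotic genes, to show the letters searched in each class. Mcm3, Cdc6 and Aurka fell with stage in both genotypes, Mcm6 fell in the wild type, and Cdk1 rose in the wild type. Capitals mark matches, on either strand, to the E2F forms searched, to the CHR letters TTTGAA and to CCAAT. The first E2F form was TTCCCGC and the second was TTGGCGC. The third form was TTCGCGC and the fourth was TTGCCGC. The windows are chr1:20820263-20820562 (minus strand) for Mcm3, chr1:128359656-128359955 (minus strand) for Mcm6, chr11:98907901-98908200 (plus strand) for Cdc6, chr10:69352863-69353162 (minus strand) for Cdk1 and chr2:172370521-172370820 (minus strand) for Aurka.
Mcm3: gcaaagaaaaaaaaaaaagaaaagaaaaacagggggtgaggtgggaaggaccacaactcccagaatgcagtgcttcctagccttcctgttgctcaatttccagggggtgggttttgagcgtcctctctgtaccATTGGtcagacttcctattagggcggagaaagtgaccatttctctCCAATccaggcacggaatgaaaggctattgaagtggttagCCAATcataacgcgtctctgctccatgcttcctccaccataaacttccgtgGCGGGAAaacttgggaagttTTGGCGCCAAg
Mcm6: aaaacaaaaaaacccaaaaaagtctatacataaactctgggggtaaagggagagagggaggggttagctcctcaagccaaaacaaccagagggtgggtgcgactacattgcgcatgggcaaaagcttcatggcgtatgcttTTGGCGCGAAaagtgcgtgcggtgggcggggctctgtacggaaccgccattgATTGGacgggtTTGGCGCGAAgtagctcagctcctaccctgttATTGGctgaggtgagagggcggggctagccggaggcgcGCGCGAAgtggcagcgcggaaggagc
Cdc6: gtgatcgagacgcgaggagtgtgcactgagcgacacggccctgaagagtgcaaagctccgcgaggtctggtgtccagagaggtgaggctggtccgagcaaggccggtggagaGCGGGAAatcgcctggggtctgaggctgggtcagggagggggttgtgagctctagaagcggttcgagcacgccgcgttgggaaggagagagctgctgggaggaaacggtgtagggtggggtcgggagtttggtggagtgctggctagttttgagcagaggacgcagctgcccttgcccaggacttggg
Cdk1: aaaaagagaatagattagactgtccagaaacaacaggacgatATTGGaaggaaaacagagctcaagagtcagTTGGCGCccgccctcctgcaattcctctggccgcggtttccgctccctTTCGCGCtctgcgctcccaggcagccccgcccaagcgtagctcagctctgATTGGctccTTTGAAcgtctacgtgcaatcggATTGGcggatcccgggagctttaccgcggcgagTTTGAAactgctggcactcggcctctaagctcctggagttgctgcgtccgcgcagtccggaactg
Aurka: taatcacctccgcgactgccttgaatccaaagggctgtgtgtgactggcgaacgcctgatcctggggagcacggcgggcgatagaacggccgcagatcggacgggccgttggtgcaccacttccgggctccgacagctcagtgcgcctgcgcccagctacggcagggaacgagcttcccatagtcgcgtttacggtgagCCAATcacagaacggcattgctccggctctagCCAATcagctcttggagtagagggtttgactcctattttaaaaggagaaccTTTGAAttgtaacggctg

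Mcm3 had 3 E2F matches, at positions 20, 40 and 43 from the transcript start, the last 2 of which overlap each other on opposite strands, and 3 CCAAT matches. Mcm6 had 5 E2F matches in 3 places, since the matches at -109 and -106 and those at -46 and -43 overlap. The Cdc6 window had 1 E2F match at -138 and no CHR or CCAAT match. That window lies wholly inside the gene, whose outer start is at chr11:98907709, and letters before that start were not searched. Cdk1 had both kinds, with 2 E2F, 2 CHR and 3 CCAAT matches, and Aurka had 1 CHR and 2 CCAAT matches without E2F letters. The Aurka window too lies inside its gene, whose outer start is at chr2:172370886. Over all windows at hand, E2F letters stood in 10 of 13 replication genes, 0 of 3 G1 and S-entry genes and 3 of 10 mitotic genes, against 10.9% of 27018 genes with a window. The E2f1 window, chr2:154569377-154569676 (minus strand), lies wholly inside its gene, whose outer start is at 154569892. Letters before that start were not searched, so the count does not cover them. CHR letters stood in 1 of 13, 0 of 3 and 7 of 10, against 20.2% of those genes, and CCAAT in 10 of 13, 1 of 3 and 9 of 10, against 41.1%. Not every gene followed its class. Mcm2, which fell in both genotypes, had 0 E2F, 1 CHR and 1 CCAAT match. Ccnb1 had 1 E2F, 0 CHR and 2 CCAAT matches, and Bub1 had 2 CCAAT matches alone. An E2F match can overlap a CCAAT match, as in Ccnb1. These matches describe letters in a window and were not tested for binding.

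Between 46.7% and 50.1% of probes were well above background in Cy5 on an array. The median Cy5 signal, with no background subtracted, was 43.1 to 46.8 intensity units, beside median local backgrounds of 35 to 37. Precision is set by the 3 arrays a group, with a median standard error of 0.07 for a difference. Replicates correlated with r of 0.985 to 0.994. The visceral endoderm list stood above the reference in every group, with array medians of 1.33 to 2.07, as did the erythroid list, with 0.68 to 1.66. Each of the 3 scans held 1 array of every group. The headers give only 2 slide barcodes, with scans 2 and 3 under the same barcode at the same positions, so whether the scan is also the slide is unsettled. Array position was the same for a group on each scan, and the effects of position and genotype or stage cannot be told apart. On scan 3 the arrays of mutant E8.5 (5.70), wild-type E9.5 (4.31) and mutant E9.5 (3.74) were high in Prl4a1, a trophoblast hormone, against 0.26 to 1.53 on the other 9. Wild-type E8.5 replicate 2 was high in heart and neural markers of the embryo, with Myl7 at 0.01 against -3.14 to -1.47 on the other 11. Counts without these arrays are given below. Values of single members without wild-type E8.5 replicate 2 are given where a call changed.

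Most of the genes stood above the neonatal reference. Averaged over the 12 arrays, 33 of 35 had a log2 ratio above 0 and 22 above 1, where 52.8% and 9.80% of all genes did. Mcm2 (2.47), Gins2 (2.36), Mcm3 (2.14), Mcm5 (1.84) and Cdt1 (1.81) led the replication genes, whose median was 1.28. Pola1 (0.51) and Pcna (0.58), the sliding clamp of the polymerases, were lowest among them. Aurka (2.19), Plk1 (2.16), Birc5 (1.99) and Cdc20 (1.90) led the mitotic genes, whose median was 1.59, and Mki67 (0.02), the proliferation antigen, stood at the reference. These ratios are not levels, and with no dye swap a probe's own dye bias is part of each.

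The D-type cyclins, partners of CDK4 and CDK6 in G1, split. Ccnd3 stood at 1.64 while Ccnd1 stood at -1.14 and Ccnd2 at -2.06, the only members below 0. In percentiles of the ratio over all genes these were 97.0, 12.1 and 4.50. Ccne1, the cyclin of S-phase entry, stood at 1.91 and Ccne2 at 0.60. E2f1 stood at 0.89. No array of Ccnd3 was below 1.56 and none of Ccnd1 or Ccnd2 was above -0.74.

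**Figure D1:**
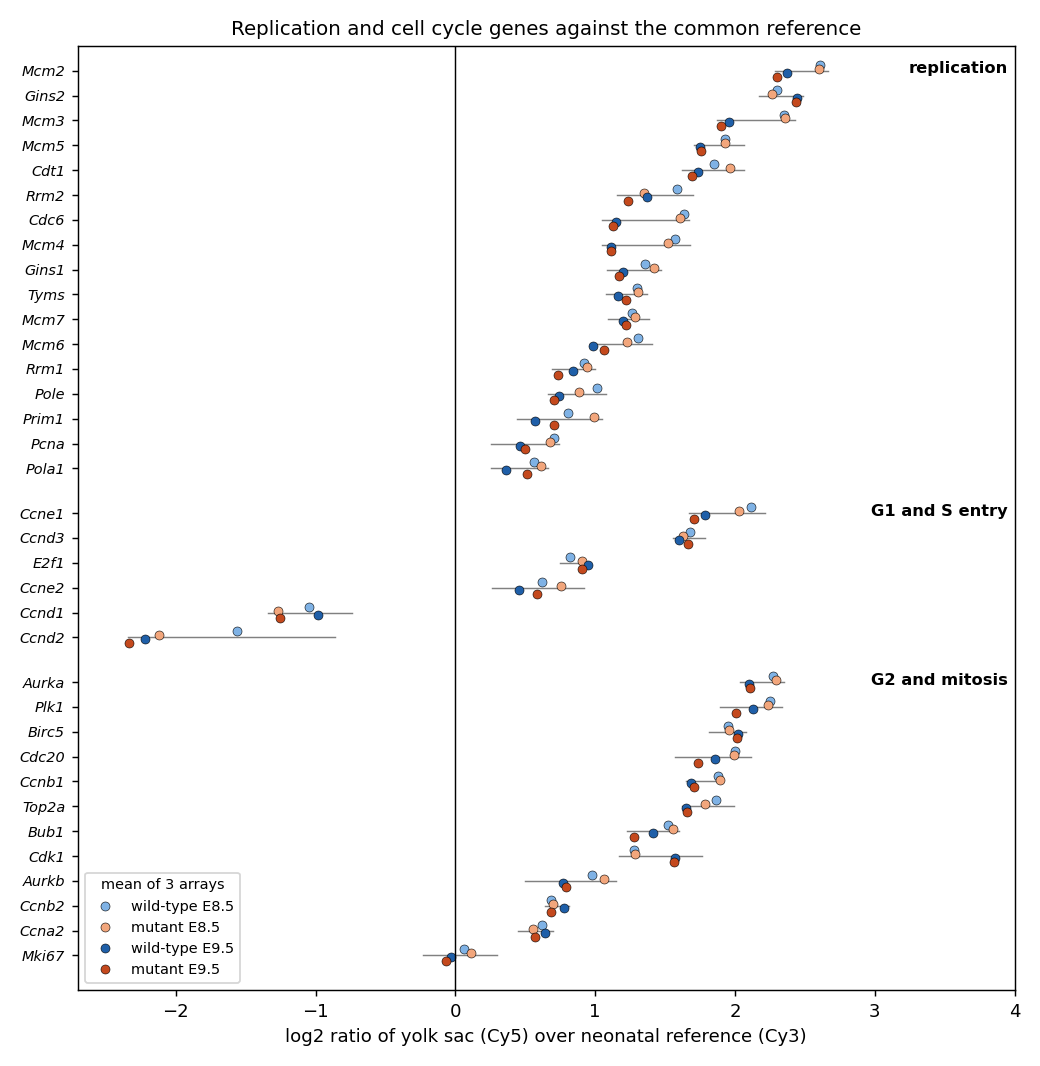
Mean log2 ratio of yolk sac over neonatal reference (x axis) for each of the 35 genes (rows, by role and order of ratio), with 1 point per group and a grey line from the lowest to the highest of the 12 arrays. Points are means of 3 arrays, except Mcm6 in mutant E8.5, which is the mean of 2. Only Ccnd1 and Ccnd2 lie wholly to the left of 0, and for most replication genes the E8.5 points lie to the right of the E9.5 points.

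From E8.5 to E9.5 in the wild type, 13 of the 35 genes fell and 1 rose (40.0%), where 23.8% of all genes passed (12.8% higher and 11% lower). In the mutant 15 fell and 0 rose (42.9%), where 21.6% of all genes passed (11% higher and 10.6% lower). Of the 17 replication genes 8 fell in the wild type against 9 in the mutant, of the 6 G1 and S-entry genes 2 and 1, and of the 12 mitotic genes 3 and 5. Median differences were -0.22 and -0.18 for the replication genes and -0.11 and -0.18 for the mitotic genes, beside -0.01 for all genes in both genotypes. Of the 17 replication genes 16 were below 0 in each genotype, as 52.9% and 52.3% of all genes were. The share of a list against all genes was not tested.

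These directions depend on how the arrays are scaled. With each array centred on its median in place of loess, the median of all genes moved to 0.11 in the wild type against 0.14 in the mutant, and the replication median lay at -0.06 and 0.02, so that its sign turned in the mutant. The mitotic median turned to 0.05 in the wild type against 0.04 in the mutant. Relative to the median of all genes, the replication genes lay at -0.17 and -0.12 under that centring, and at -0.21 and -0.17 under loess. Their mitotic counterparts lay at -0.06 and -0.10, and at -0.10 and -0.18. With median centring the genes that passed were Cdc6, which fell in both genotypes, and E2f1, which rose in the wild type (0.24, adjusted p = 0.048). The calls of all genes then split into 1381 higher and 77 lower in the wild type, against 1783 and 1525, and into 1678 and 78 in the mutant, against 1522 and 1476. The falls below are therefore falls relative to the other genes on the array.

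The licensing factor Cdc6 fell most among the replication genes. Its arrays gave 1.63, 1.66 and 1.62 in wild-type E8.5 and 1.05, 1.11 and 1.29 in wild-type E9.5. In the mutant they gave 1.52, 1.63 and 1.67 at E8.5 and 1.18, 1.15 and 1.06 at E9.5. No E9.5 array reached the lowest E8.5 array in either genotype. The fall was 0.49 in the wild type (SE 0.07, adjusted p = 0.00016) and 0.48 in the mutant (SE 0.07, adjusted p = 0.00021), so that E9.5 stood at 0.713 and 0.719 of E8.5. It passed under every alternative run in both genotypes.

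Its partner Cdt1, which brings MCM to the origin, read 1.85, 1.87 and 1.83 in wild-type E8.5, 1.76, 1.70 and 1.75 in wild-type E9.5, 1.88, 1.94 and 2.06 in mutant E8.5 and 1.72, 1.62 and 1.73 in mutant E9.5. The E9.5 arrays lay below the E8.5 arrays in both genotypes. Cdt1 fell by 0.27 in the mutant (SE 0.06, adjusted p = 0.0041), and its wild-type difference was -0.11 (adjusted p = 0.19).

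Of the 6 MCM helicase subunits, Mcm2, Mcm3 and Mcm4 fell in both genotypes, Mcm6 fell in the wild type, and Mcm5 and Mcm7 passed in neither without a block. Mcm4 arrays read 1.40, 1.68 and 1.64 in wild-type E8.5 and 1.09, 1.05 and 1.19 in wild-type E9.5, then 1.49, 1.56 and 1.51 in mutant E8.5 and 1.17, 1.11 and 1.06 in mutant E9.5. It fell by 0.46 (SE 0.07, adjusted p = 0.00041) and 0.41 (SE 0.07, adjusted p = 0.0010), with the E9.5 arrays apart from the E8.5 arrays each time. Mcm3 arrays read 2.32, 2.43 and 2.31, then 1.93, 1.91 and 2.03 in the wild type, and 2.30, 2.39 and 2.39, then 1.97, 1.87 and 1.87 in the mutant, again with no overlap of stages. The fall of Mcm3 was 0.39 in the wild type (adjusted p = 0.00027) and 0.46 in the mutant (adjusted p = 8.7e-05), each with SE 0.06.

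For Mcm2 the wild-type arrays went from 2.58, 2.64 and 2.60 to 2.42, 2.29 and 2.41 and the mutant arrays from 2.57, 2.67 and 2.57 to 2.32, 2.29 and 2.30. The groups did not overlap, and the falls were 0.23 (adjusted p = 0.0068) and 0.30 (adjusted p = 0.0013), with SE 0.05. Mcm6 went from 1.24, 1.41 and 1.26 to 1.02, 0.96 and 0.98 in the wild type, a fall of 0.32 (SE 0.06, adjusted p = 0.0023). In the mutant it had 1.21 and 1.25 at E8.5 on 2 arrays, since an outlier spot was left out on replicate 3, and 1.13, 1.08 and 0.98 at E9.5. That difference was -0.16 (adjusted p = 0.11). Mcm5 differed by -0.18 and -0.17 (adjusted p = 0.072 and 0.086), with stages that did not overlap, and passed in the wild type with the scan as a block (adjusted p = 0.046). It passed in the mutant without wild-type E8.5 replicate 2 (-0.17, adjusted p = 0.044). Mcm7 differed by only -0.06 in each genotype, with overlapping arrays and a 95% confidence interval of -0.21 to 0.08 in the wild type.

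Pole and Prim1 fell in both genotypes and Pola1 fell in the wild type. Pole, the catalytic subunit of the leading-strand polymerase, read 1.02, 1.08 and 0.94 and then 0.75, 0.73 and 0.74 in the wild type, and 0.88, 0.88 and 0.88 and then 0.66, 0.79 and 0.66 in the mutant. Stages did not overlap, and it fell by 0.27 (SE 0.05, adjusted p = 0.0024) and 0.18 (SE 0.05, adjusted p = 0.030), though median centring turned the mutant value to 0.0024. Prim1, the primase subunit that makes the RNA primer, read 0.88, 0.76 and 0.77 and then 0.58, 0.44 and 0.69 in the wild type, and 1.03, 0.89 and 1.05 and then 0.72, 0.70 and 0.70 in the mutant. It fell by 0.23 (SE 0.07, adjusted p = 0.022) and 0.28 (SE 0.07, adjusted p = 0.0089).

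Pola1, the catalytic subunit that extends the primer, read 0.62, 0.53 and 0.54 and then 0.47, 0.35 and 0.25 in the wild type, a fall of 0.20 (SE 0.07, adjusted p = 0.045). In the mutant it read 0.64, 0.66 and 0.54 and then 0.60, 0.53 and 0.40, overlapping groups that differed by -0.10 (adjusted p = 0.33). The wild-type difference of Pola1 was -0.22 without wild-type E8.5 replicate 2, and did not pass (adjusted p = 0.060). Pcna differed by -0.25 in the wild type (adjusted p = 0.0517; 0.016 with the scan as a block) and -0.18 in the mutant (adjusted p = 0.16).

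Gins1 and Gins2 encode parts of the same complex, and without a block Gins1 alone passed, in the mutant. Gins1 read 1.33, 1.37 and 1.36 and then 1.20, 1.16 and 1.23 in the wild type, and 1.44, 1.35 and 1.47 and then 1.18, 1.25 and 1.08 in the mutant, where it fell by 0.25 (SE 0.06, adjusted p = 0.0057). The wild-type difference of -0.16 did not pass (adjusted p = 0.055). Gins2 was the replication gene above 0 in both genotypes under loess, with arrays of 2.37, 2.19 and 2.33 and then 2.49, 2.41 and 2.43 in the wild type and 2.37, 2.17 and 2.25 and then 2.45, 2.45 and 2.41 in the mutant. Its E9.5 arrays lay above its E8.5 arrays each time, but the differences of 0.15 and 0.17 did not pass (adjusted p = 0.11 and 0.071). With the scan as a block Gins2 passed in the mutant (adjusted p = 0.036), as it did without wild-type E8.5 replicate 2 (0.17, adjusted p = 0.043).

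Ribonucleotide reductase makes the deoxynucleotides for the new strands. Its large subunit gene Rrm1 read 0.85, 1.00 and 0.90 and then 0.77, 0.92 and 0.85 in the wild type, and 0.92, 0.99 and 0.92 and then 0.78, 0.72 and 0.69 in the mutant. It fell by 0.21 in the mutant (SE 0.06, adjusted p = 0.019; 0.02 with median centring), and its wild-type difference was -0.07 (adjusted p = 0.41). The small subunit gene Rrm2 differed by -0.22 in the wild type (adjusted p = 0.0515; 0.012 with the scan as a block) and -0.11 in the mutant (adjusted p = 0.32). Tyms, thymidylate synthase, differed by -0.13 and -0.09 (adjusted p = 0.20 and 0.43).

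**Figure D2:**
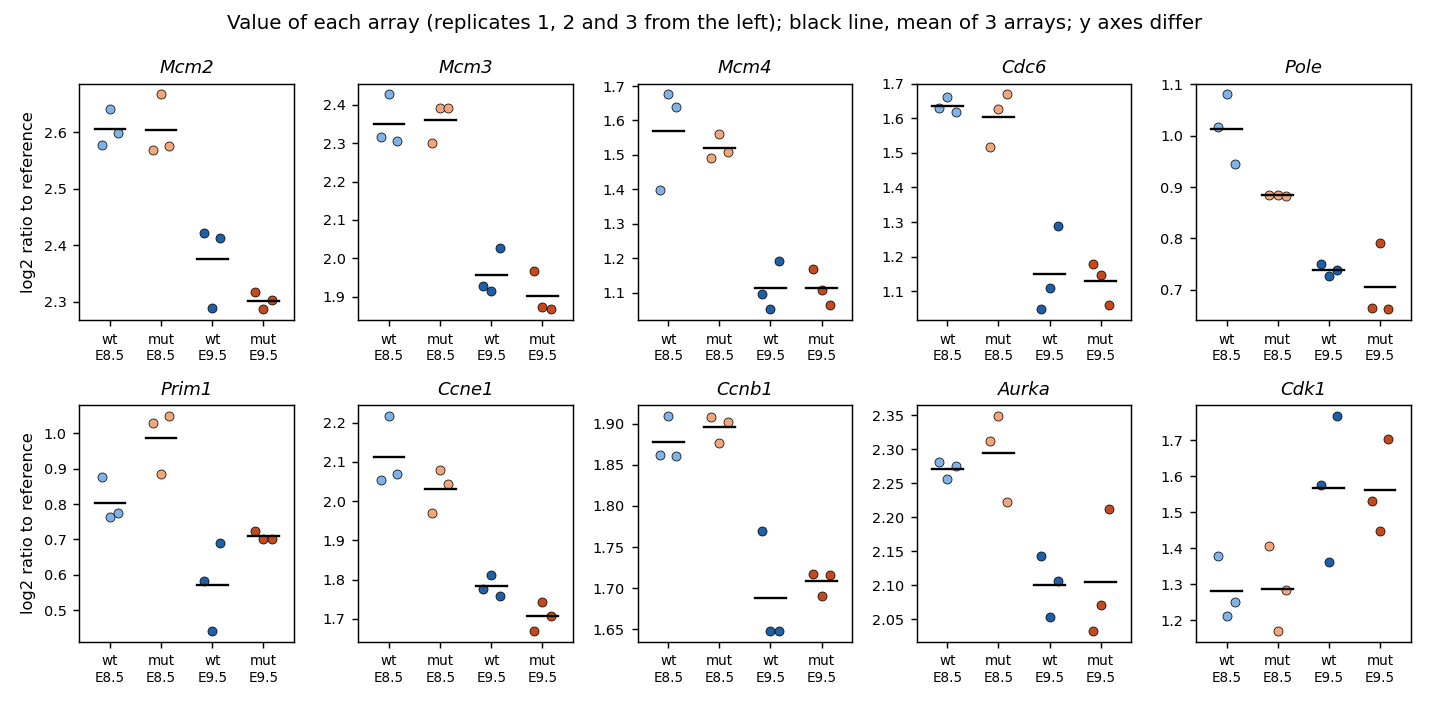
Log2 ratio to the reference (y axis, with a range of its own in each panel) on every array of the 4 groups for the 9 genes that fell with stage in both genotypes and for Cdk1. Points are single arrays and black lines are means of 3. In the 9 falling genes every E9.5 array lies below every E8.5 array of its genotype. Under median centring the sign of Aurka turned in both genotypes, and those of Pole and Ccnb1 in the mutant.

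Among the G1 and S-entry genes Ccne1 fell in both genotypes. It read 2.05, 2.22 and 2.07 and then 1.78, 1.81 and 1.76 in the wild type, and 1.97, 2.08 and 2.04 and then 1.67, 1.74 and 1.71 in the mutant, with no overlap. The falls were 0.33 (SE 0.06, adjusted p = 0.00087) and 0.32 (SE 0.06, adjusted p = 0.0011). Ccne2, the other E-type cyclin, differed by -0.17 and -0.17 (adjusted p = 0.20 and 0.19). E2f1, an activating E2F factor, differed by 0.12 in the wild type (adjusted p = 0.11) and -0.01 in the mutant. Ccnd3 differed by -0.07 and 0.04, within the spread of its arrays.

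Ccnd2 read -1.97, -0.86 and -1.85 in wild-type E8.5, -2.26, -2.12 and -2.28 in wild-type E9.5, -2.16, -2.13 and -2.06 in mutant E8.5 and -2.34, -2.33 and -2.32 in mutant E9.5. The second wild-type E8.5 array stood far above the rest. Ccnd2 fell by 0.66 in the wild type (SE 0.19, adjusted p = 0.024) and by 0.31 without that array (SE 0.06, adjusted p = 0.0045). In the mutant it differed by -0.21 (adjusted p = 0.49), which passed without that array (adjusted p = 0.015). Ccnd1 read -1.21, -0.74 and -1.19 in wild-type E8.5, -0.99, -0.93 and -1.03 in wild-type E9.5, -1.27, -1.22 and -1.31 in mutant E8.5 and -1.34, -1.24 and -1.19 in mutant E9.5. Again the same array was highest. Its wild-type stage difference was 0.06 with that array (adjusted p = 0.69) and 0.22 without it (adjusted p = 0.024). Myl7, Myh6, Hes5 and Nes were highest on the same array, and the part of embryonic tissue in these values was not tested.

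**Figure D3:**
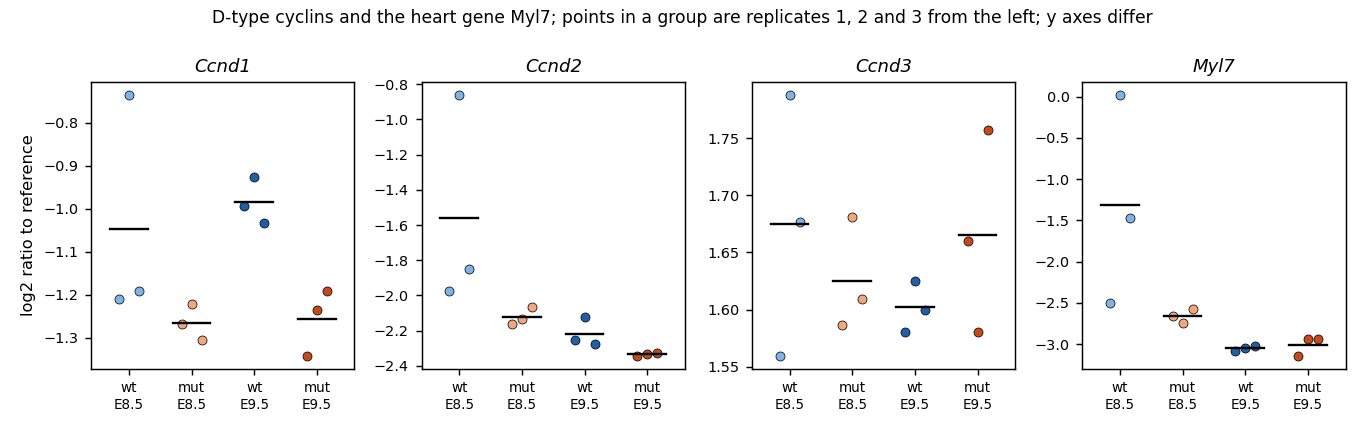
Log2 ratio to the reference (y axis, with a range of its own in each panel) on every array for the D-type cyclins and for Myl7, a heart muscle gene of the embryo. Points are replicates 1, 2 and 3 from the left in each group, and black lines are means of 3. Wild-type E8.5 replicate 2 is the highest array for Ccnd1 (-0.74), Ccnd2 (-0.86), Ccnd3 (1.79) and Myl7 (0.01).

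Of the mitotic genes Ccnb1 and Aurka fell in both genotypes. Ccnb1, the mitotic cyclin, read 1.86, 1.91 and 1.86 and then 1.77, 1.65 and 1.65 in the wild type, and 1.91, 1.88 and 1.90 and then 1.72, 1.69 and 1.72 in the mutant. It fell by 0.19 in each genotype (SE 0.05, adjusted p = 0.015 and 0.016), and median centring turned the mutant value to 0.0036. Aurka, the spindle-pole kinase, read 2.28, 2.26 and 2.28 and then 2.14, 2.05 and 2.11 in the wild type, and 2.31, 2.35 and 2.22 and then 2.03, 2.07 and 2.21 in the mutant. Stages did not overlap, and it fell by 0.17 (adjusted p = 0.049) and 0.19 (adjusted p = 0.032), with SE 0.06. Median centring turned these to 0.01 and 0.05, and with the scan as a block the wild-type value missed the threshold (adjusted p = 0.0501). It also missed it without wild-type E8.5 replicate 2 (-0.18, adjusted p = 0.076).

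Top2a, the topoisomerase that untangles chromosomes, read 1.74, 1.99 and 1.86 and then 1.63, 1.69 and 1.62 in the wild type, a fall of 0.21 (SE 0.06, adjusted p = 0.022). In the mutant it read 1.74, 1.81 and 1.81 and then 1.63, 1.69 and 1.64, a difference of -0.13 (adjusted p = 0.15). The wild-type difference of Top2a was -0.15 without wild-type E8.5 replicate 2, and did not pass (adjusted p = 0.091). A second, dimmer Top2a probe gave 0.01 and -0.18. Bub1, a kinase of the spindle checkpoint, read 1.53, 1.50 and 1.53 and then 1.38, 1.39 and 1.47 in the wild type, and 1.60, 1.52 and 1.55 and then 1.32, 1.28 and 1.23 in the mutant. It fell by 0.28 in the mutant (SE 0.05, adjusted p = 0.0015), and differed by -0.11 in the wild type (adjusted p = 0.15).

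Plk1, the Polo-like kinase, read 2.27, 2.34 and 2.15 and then 2.10, 2.12 and 2.17 in the wild type, where stages overlapped, and 2.29, 2.23 and 2.20 and then 2.02, 1.89 and 2.11 in the mutant, where they did not. It fell by 0.23 in the mutant (SE 0.07, adjusted p = 0.021), with -0.12 in the wild type (adjusted p = 0.20). Cdc20 read 1.97, 2.10 and 1.93 and then 1.80, 1.87 and 1.91 in the wild type, and 2.11, 1.96 and 1.90 and then 1.57, 1.76 and 1.88 in the mutant. The mutant fall of 0.26 passed (SE 0.08, adjusted p = 0.034), although it ranged from -0.54 on scan 1 to -0.02 on scan 3. The wild-type difference was -0.14 (adjusted p = 0.22).

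Cdk1, the kinase of mitotic entry, was the member that rose under loess. Its arrays read 1.38, 1.21 and 1.25 in wild-type E8.5, 1.57, 1.36 and 1.77 in wild-type E9.5, 1.41, 1.17 and 1.28 in mutant E8.5 and 1.53, 1.45 and 1.70 in mutant E9.5. The wild-type stages overlapped, since the lowest E9.5 array lay under the highest E8.5 array, and the mutant stages did not. The difference was 0.29 in the wild type (SE 0.10, adjusted p = 0.045) and 0.27 in the mutant (SE 0.10, adjusted p = 0.058; 0.015 with the scan as a block). Without wild-type E8.5 replicate 2 the wild-type value was 0.25 (adjusted p = 0.12). Under median centring it was 0.47 and 0.50 (adjusted p = 0.14 and 0.099). For Cdk1 a second probe had 0 arrays well above background.

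The remaining mitotic genes did not pass in either genotype without a block. Aurkb, the kinase of the chromosomal passenger complex, differed by -0.21 and -0.27 (adjusted p = 0.15 and 0.066), and passed in both with the scan as a block (adjusted p = 0.039 and 0.012), while Birc5, a member of the same complex, differed by 0.07 and 0.06. Ccna2 and Ccnb2, cyclins of S phase and of mitosis, differed by 0.02 and 0.09 in the wild type and by 0.02 and -0.02 in the mutant. Mki67 differed by -0.10 and -0.18.

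**Figure D4:**
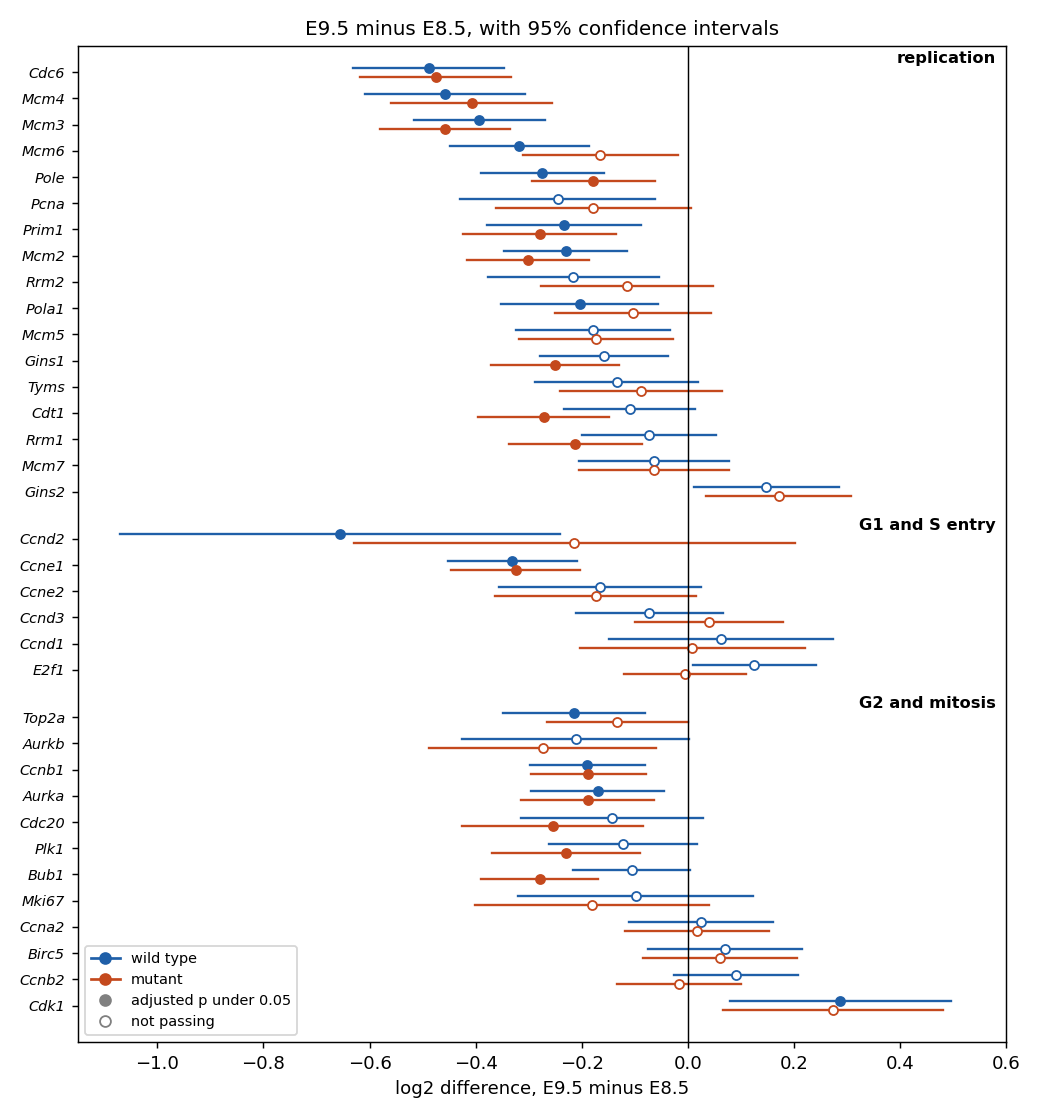
Difference between E9.5 and E8.5 in log2 ratio (x axis) for the 35 genes (rows, by role), in the wild type (blue) and the mutant (orange), with 95% confidence intervals from limma. Filled points passed an adjusted p under 0.05. Of the 17 replication genes 16 lie left of 0 in each genotype under loess, against 12 and 7 under median centring, and Gins2 lies to the right.

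The 9 genes that fell in both genotypes were Cdc6, Mcm2, Mcm3, Mcm4, Pole, Prim1, Ccne1, Ccnb1 and Aurka. Those that passed in 1 genotype alone were not shown to differ between them, since the stage difference differed between genotypes for 0 of the 35 genes and for 0 of all 13896 genes (limma, 0% called). At an unadjusted p under 0.05 the difference passed for 1 of the 35 (Bub1, -0.17) and for 795 of all genes (5.72%). Groups of the 2 stages did not overlap for 22 of the 35 genes in the wild type against 23 in the mutant, where 37.5% and 38.5% of all genes did not. Each of the 14 wild-type and 15 mutant calls had the same sign on scans 1, 2 and 3. Within single scans the replication median was -0.15, -0.31 and -0.18 in the wild type and -0.14, -0.17 and -0.25 in the mutant. The mitotic median was -0.10, -0.16 and -0.04, and -0.15, -0.19 and -0.07. With the scan as a block 17 of the 35 passed in the wild type against 18 in the mutant. The share of all genes in that fit is not given here, so these counts are not set against all genes.

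Leaving out the 3 arrays high in Prl4a1 left 8 genes passing in the wild type against 10 in the mutant, all lower at E9.5, with replication medians of -0.18 in both. In the mutant 1347 of 13894 genes passed in that fit. Leaving out wild-type E8.5 replicate 2 left 11 passing in the wild type (10 lower), with a replication median of -0.21, and 18 in the mutant, among them Gins2, which rose. In the mutant 3369 of all genes passed in that fit. Fitting the wild-type arrays alone left 7 passing. For the wild-type counts the shares of all genes in the same fits are not given here, so these counts are not set against all genes. When each of the 12 arrays was left out in turn, the calls of Cdc6, Mcm3, Mcm4 and Ccne1 were lost in 0 of 12 fits in either genotype. The wild-type call was lost in 10 of 12 for Aurka, 8 for Pola1, 6 for Cdk1 and 4 for Top2a, and the mutant call in 5 for Pole and 4 for Aurka and Cdc20.

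Other probes were at hand for several genes. The second Cdc6 probe gave -0.45 in the wild type against -0.36 in the mutant, the second Mcm3 probe -0.19 and -0.23, and the second Ccne1 probe -0.17 and -0.28. The 3 Ccnd2 probes gave -0.66, -0.52 and -0.37 in the wild type. The second Gins1 probe gave -0.20 and -0.12, against -0.16 and -0.25 for the first, so the genotype with the larger difference depended on the probe. Second probes of Ccne2 (-0.16 and -0.12) and Tyms (-0.11 and -0.07) lay below 0 as the first did, while that of Mki67 gave 0.03 and -0.04 and that of E2f1 0.04 and 0.03. Both other Ccnb1 probes were lower at E9.5 too, by -0.13 and -0.10 in the wild type and by -0.02 and -0.16 in the mutant. Second probes for Mcm4, Pole and Rrm1 had 0 arrays well above background.

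Among 49 further replication genes 14 fell and 0 rose in the wild type (28.6% lower, against 11% of all genes), and 15 fell and 0 rose in the mutant (30.6%, against 10.6%), with medians of -0.11 and -0.12. In the wild type the largest falls were Prim2, the other primase subunit (-0.63, adjusted p = 0.015), Orc2, a subunit of the origin recognition complex (-0.40, adjusted p = 0.00011), and Dctpp1, a nucleotide pyrophosphatase (-0.39, adjusted p = 0.002). In the mutant they were Orc2 (-0.40, adjusted p = 0.00012), Mcm8 (-0.36, adjusted p = 0.0062) and Dctpp1 (-0.34, adjusted p = 0.0057). Orc2 stood at 0.68, 0.71 and 0.74 in wild-type E8.5 and at 0.30, 0.29 and 0.32 in wild-type E9.5, well apart. The Prim2 arrays were more scattered, with 0.89, 1.14 and 0.76 and then 0.56, 0.04 and 0.31. In the mutant Prim2 went the other way, from 0.63, 0.05 and 0.74 to 0.89, 0.58 and 0.55, and was not called.

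Of 34 further G1 and S-entry genes 33 were measured, of which 2 rose and 5 fell in the wild type and 4 rose and 6 fell in the mutant. The 21.2% called in the wild type was near the 23.8% of all genes, and the mutant share was 30.3% against 21.6%. Cdkn1c, a CDK inhibitor, rose most, by 0.88 in the wild type (adjusted p = 6.8e-05) and 0.82 in the mutant (adjusted p = 0.00014). Its arrays stood at -0.52, -0.26 and -0.53 in wild-type E8.5 and at 0.27, 0.53 and 0.55 in wild-type E9.5, with no overlap. Ccng1, a p53 target, also rose in both (0.25 and 0.20), and Cdkn2c, an inhibitor of CDK4 and CDK6, rose in the mutant (0.23). Mycn and Myc, growth-promoting transcription factors, fell by 0.61 and 0.42 in the wild type and by 0.60 and 0.38 in the mutant. Mycn read 0.37, 1.03 and 0.45 in wild-type E8.5 and -0.05, -0.15 and 0.21 in wild-type E9.5. Its highest array was wild-type E8.5 replicate 2, the one high in heart and neural markers, and its fall without that array is not given here. E2f3 fell by 0.28 in each genotype, and E2f2 fell in the mutant (-0.46).

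Of 57 further mitotic genes 1 rose and 3 fell in the wild type, and 3 rose and 4 fell in the mutant, with medians of 0.01 and -0.04. These shares of 7.02% and 12.3% lay below the 23.8% and 21.6% of all genes, and the genes called are given as single genes. Mybl2, an activator of mitotic genes, rose in the wild type (0.36, adjusted p = 0.0016), while Cenpa, Cenpf and Ncapg fell by 0.21 to 0.23. In the mutant Ndc80, Anln and Plk4 rose by 0.23 to 0.24, and Incenp, Kif23 and Hmgb2 fell by 0.19 to 0.26.

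Markers of the tissues in the yolk sac moved with stage as well. Of all genes 12.8% were called higher and 11% lower in the wild type, and 11% and 10.6% in the mutant. Of 13 erythroid markers 6 fell in each genotype, namely the factors and receptor Klf1, Gata1, Tal1, Nfe2, Gfi1b and Epor, and the embryonic globin Hbb-y rose in the wild type. Median log2 ratios of the erythroid list went from 1.20 to 1.41 on the wild-type E8.5 arrays to 0.68 to 0.81 at E9.5, and from 1.40 to 1.66 to 0.73 to 1.08 in the mutant. Of 12 visceral endoderm markers 6 rose and 1 fell in each genotype, with array medians of 1.33 to 1.63 and then 1.78 to 1.96 in the wild type, and means of the array medians of 1.53 and then 1.89 in the mutant. Of 8 mesenchyme markers 5 rose in each genotype and 1 fell in the mutant, with array medians of -3.08 to -2.71 and then -1.90 to -1.76 in the wild type, and -2.81 to -2.60 and then -1.85 to -1.68 in the mutant. All 33 of these markers were well above background on all 12 arrays. Markers of the embryonic heart and nervous system fell with stage in the wild type, for 3 of 5 measured (Myl7 by 1.73, Myh6 by 0.43 and Tnnt2 by 0.42), with a list median of -0.43, and 0 of 5 passed in the mutant, with a median of -0.06. Their array medians were -1.99 to -0.74 in wild-type E8.5, highest on replicate 2, and -2.19 to -1.97 in the other groups. Of 8 endothelial markers 2 rose and 1 fell in the wild type and 0 passed in the mutant. The part of tissue composition in the stage differences was not tested.

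The genotypes were compared to see whether the V1068G mutation changes these genes. None of the 35 passed at E8.5, where 1.44% of all genes did (0.712% higher and 0.727% lower), at E9.5, where 1.99% did (0.914% and 1.08%), or over both stages, where 4.68% did (2.35% and 2.33%). This was the fit of all 12 arrays without a block, and other fits in which single genes passed are given below. At an unadjusted p under 0.05 in limma 5, 3 and 4 of the 35 passed (14.3%, 8.57% and 11.4%), near or below the 12.4%, 12% and 17% of all genes. Replication medians of mutant minus wild type were 0.00 at E8.5 and -0.01 at E9.5, and mitotic medians 0.01 and -0.02, beside 0.00 for all genes. Under median centring these medians lay between -0.13 and -0.08, beside -0.09 and -0.06 for all genes. Groups did not overlap for 6 of the 35 at each stage, where 17.9% and 17.3% of all genes did not.

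The intervals bound what could have been missed. The 95% confidence interval of the mutant difference lay within 1.5-fold of no change for 34 of the 35 genes at E8.5 and for all 35 at E9.5. Ccnd2 at E8.5 was the exception, with an interval of -0.97 to -0.14. For Cdc6 the interval was -0.18 to 0.11 at E8.5 and -0.16 to 0.12 at E9.5, and for Mcm3 -0.11 to 0.13 and -0.18 to 0.07. Pcna differed by -0.03 and 0.03, and Birc5 by 0.00 and -0.01. A p that misses the threshold does not show that the genotypes are alike.

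Rrm2, the small subunit of ribonucleotide reductase, had the lowest adjusted p of the replication genes over both stages. Its arrays read 1.54, 1.70 and 1.52 in wild-type E8.5, 1.27, 1.46 and 1.31 in mutant E8.5, 1.42, 1.39 and 1.31 in wild-type E9.5 and 1.15, 1.38 and 1.16 in mutant E9.5. The mutant arrays lay below the wild-type arrays at E8.5, and overlapped them at E9.5. The difference was -0.24 at E8.5 (SE 0.08, adjusted p = 0.16), -0.14 at E9.5 (SE 0.08, adjusted p = 0.51) and -0.19 over both stages (SE 0.05, adjusted p = 0.057). On every scan it was below 0 at both stages. With the scan as a block it passed at E8.5 (adjusted p = 0.044) and over both stages (adjusted p = 0.012).

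Ccnd1 differed between mutant and wild type by -0.22 at E8.5 (SE 0.10, adjusted p = 0.38), by -0.27 at E9.5 (adjusted p = 0.24) and by -0.25 over both stages (adjusted p = 0.062; 0.027 with the scan as a block). The groups did not overlap at either stage. Without wild-type E8.5 replicate 2 the difference at E8.5 was -0.06, and that at E9.5, still -0.27, passed (adjusted p = 0.015). Ccnd2 differed by -0.56 at E8.5 (SE 0.19, adjusted p = 0.21) and by -0.21 without that array (adjusted p = 0.17), against -0.12 at E9.5. Over both stages and without that array Ccnd1 fell by 0.17 (adjusted p = 0.032) and Ccnd2 by 0.16 (adjusted p = 0.047). In that fit 369 of all genes passed at E9.5, with 1 of the 35 members, and 687 over both stages, with 2 of the 35. The members were not tested against all genes, so Ccnd1 and Ccnd2 are given as single genes.

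Prim1 differed between mutant and wild type by 0.18 at E8.5 (adjusted p = 0.25), 0.14 at E9.5 (adjusted p = 0.45) and 0.16 over both stages (SE 0.05, adjusted p = 0.076; 0.035 with the scan as a block). Its genotype groups did not overlap at either stage. Pola1 differed by 0.05 and 0.15, and Pole by -0.13 and -0.03. Bub1 differed most among the mitotic genes, by -0.14 at E9.5 (SE 0.05, adjusted p = 0.25), and by 0.03 at E8.5.

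**Figure D5:**
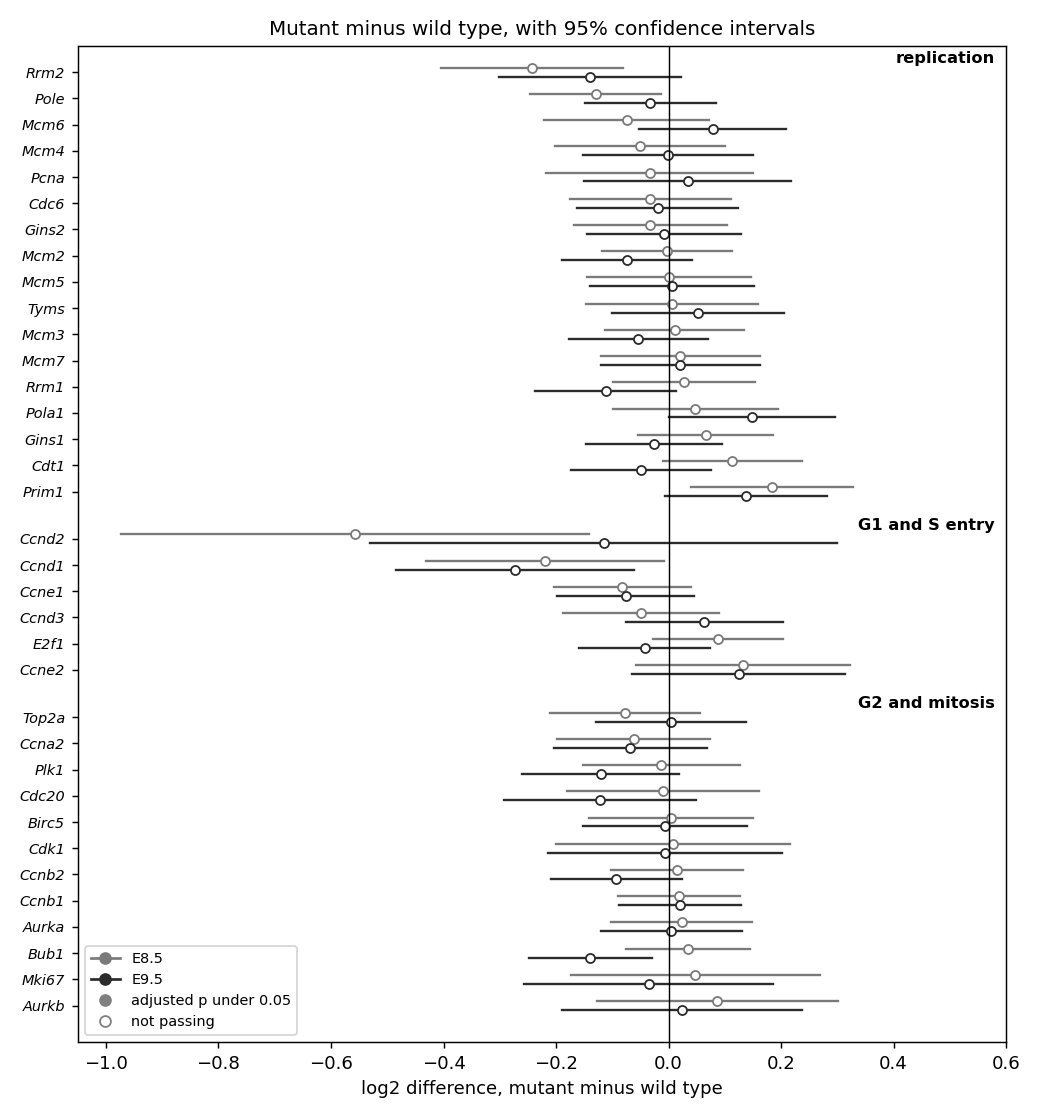
Difference between mutant and wild type in log2 ratio (x axis) for the 35 genes (rows, by role) at E8.5 (grey) and E9.5 (black), with 95% confidence intervals from limma. No point is filled, since no gene passed an adjusted p under 0.05 at either stage. The widest intervals are those of Ccnd2, which runs from -0.97 to -0.14 at E8.5.

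Of the further pathway genes measured (49 of replication, 33 of G1 and S entry and 57 of mitosis), Mybl2 alone passed for genotype. That is 0.719% of these genes, below the 1.99% of all genes at E9.5 and the 4.68% over both stages, and it is given as a single gene. Its arrays read 2.42, 2.58 and 2.49 in wild-type E9.5 and 2.09, 2.21 and 2.31 in mutant E9.5, without overlap. It fell in the mutant by 0.29 at E9.5 (SE 0.07, adjusted p = 0.037) and by 0.18 over both stages (SE 0.05, adjusted p = 0.040). At E8.5 the arrays overlapped, with 2.18, 2.19 and 2.04 in the wild type and 2.00, 2.08 and 2.10 in the mutant. Beside these comparisons, marker genes rose in the mutant at E8.5, where 0.712% of all genes were called higher. They were 4 of 8 for mesenchyme, 1 of 13 erythroid (Eraf, 0.63), 1 of 12 for visceral endoderm (Sox17, 0.39) and 1 of 8 endothelial (Cldn5, 0.24), and 0 in each of these lists passed at E9.5. Their part in the genotype values was not tested.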

How the data were processed

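RNA of 12 yolk sac samples was hybridised to 2-colour Agilent arrays, with TRIzol and RNeasy extraction and low-input amplification per the labels' protocols. Feature Extraction 9.5.1.1 made the deposited spot intensity values, the background flags and scores, and the log10 ratios per the file headers; the authors' deposited log2 table, centred per probe on a median of 0, served as an alternative. Mean and local background signals were corrected with normexp (offset 50) and loess in limma 3.58.1 (R 4.3.3), with control spots at weight 0. Outlier spots and 6 spots more than 20 units below background were left out, the latter by a rule chosen after a correction had failed. Probes well above background in Cy5 on all 3 arrays of at least 1 group were kept (20065), and the brightest probe stood for each of 13896 genes. A model of 4 group means was fitted over all genes, moderated by limma and adjusted by Benjamini-Hochberg at 0.05. Genes named in the text were the 35 members, the largest calls of each further list and the marker lists. The members and lists were chosen with earlier results of these data known. Replicate numbers equal scan numbers per the file headers. Deviations of same-numbered samples correlated at -0.01 to 0.42, over 0.1 in 16 of 18 pairs, against -0.40 to 0.12 and 1 of 36 for samples of different numbers. Background, scaling, filter, probe, weight, block and left-out arrays were varied. The V1068G change does not test itself at the transcript level. Scripts were tested on simulated data.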

Additional observations from a re-analysis of the deposited data

How the results depend on the processing

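Alternatives for the genes named gave 720 values with the same direction and call, 138 with a lost call, 7 with a new call and 6 with the sign turned. Median centring gave 10, 26 and 158 genes changed with genotype at E8.5, E9.5 and over both stages, 1458 and 1756 with stage in wild type and mutant, and 1 (Ccnd1), 2 and 1 members over both stages and with stage in wild type and mutant. Replication medians were then -0.13, -0.079, -0.11, -0.063 and 0.018, and mitotic medians -0.12, -0.11, -0.12, 0.046 and 0.042, in the same order. It turned Aurka to 0.0087 and 0.047, Rrm1 to 0.018, Pole to 0.0024 and Ccnb1 to 0.0036. Aurkb, mutant minus wild type at E8.5, turned to -0.0013. The cause was not tested. Processed signals and the authors' deposited table gave 173 and 181 genes at E9.5 and 9 wild-type stage members each. An offset of 10 gave 9 mutant stage members and a mitotic median of -0.14. The replicate block (scan) gave 1 member at E8.5, 3 over both stages and 1 gene for the interaction. The shares of all genes for genotype in the block fit are not given here, so its member counts are not set against all genes. Array weights gave 439 genes at E8.5, 2 members over both stages and 7 genes for the interaction. The compared groups alone gave 123 genes at E8.5 and 7 wild-type stage members. Without the 3 arrays high in Prl4a1 there were 86, 124 and 322 genes for genotype, 2 for the interaction, 1347 for mutant stage and 8 wild-type stage members. Leaving out 1 array gave 93 to 222 genes at E8.5, 145 to 369 at E9.5, 444 to 687 over both stages and 0 to 5 for the interaction. Members numbered 0 to 1 at E9.5, 0 to 2 over both stages, 9 to 15 and 10 to 18 with stage, with mitotic medians of -0.088 to -0.017 at E9.5 and replication medians of -0.24 to -0.18 in the mutant stage difference. All 35 members were well above background in both channels on all 12 arrays, and the number of arrays limits the precision.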
